A study of Oryza sativa with 48 samples.

Results

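The 100 late-rising genes are the rice genes whose transcripts stood highest after 6 days under water, measured against both day 1 and day 0, in every combination of genotype and leaf type. They were selected on the measured values of days 0, 1 and 6, out of 37830 genes in the table. For each of the 4 combinations of 2 genotypes and 2 leaf types, the smaller of the log2 changes from day 1 to day 6 and from day 0 to day 6 was taken on group means of counts scaled to the library total (CPM) with 1 added. The lowest of the 4 values was the score of a gene, and the 100 genes with the highest score became the members. Scores ran from 3.70 down to 0.941, with a median of 1.26. The last 5 members scored 0.954, 0.951, 0.950, 0.949 and 0.941, and the first 5 genes outside scored 0.936, 0.934, 0.934, 0.925 and 0.917, so the edge of the set is a gradual one. The libraries of day 3 had no part in the choice, and neither did any difference between genotypes or leaf types.

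Complete submergence cuts a rice plant off from most oxygen and light. Many cultivars answer by elongating their leaves towards the surface at the cost of stored carbohydrate, whereas cultivars with the ethylene response factor SUB1A hold growth back and save their reserves. Genes of fermentation and sugar supply react within hours of flooding, whereas the transcripts of other genes build up over days.

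M202 is a rice cultivar without SUB1A, and M202(Sub1) is the line of the same background into which the Sub1 locus was introduced. Plants of both genotypes were grown in pots in a greenhouse and put completely under water at the 4.2-leaf stage for 1, 3 or 6 days, with unsubmerged plants of day 0 as controls. The 5th leaf, still elongating, was harvested apart from the lower, non-elongating leaves right after the plants came out of the water. Total RNA of the resulting 16 groups was sequenced in paired-end mode, with 3 independent biological replicates per group and 48 libraries in all. The control leaves are of day 0 alone, so days under water and the age of the leaves cannot be told apart. M202(Sub1) stands for the Sub1 locus through 1 line, and other introduced sequence beside that locus cannot be told apart from it here.

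Libraries held between 4873142 and 10369501 counts, with a median of 6854259.5. The leaf markers RCA, RBCS and LHCB1 were present in every library, at 494 to 13490, 207 to 6584 and 369 to 3055 CPM. RCc3, a root gene, had no count in 36 of the 48 libraries, and OSH1, a gene of the shoot meristem, had none in 34, with the highest levels at 1.02 and 0.585 CPM. All 100 members were among the 21453 genes with enough counts to be tested. A gene is called higher or lower below where the adjusted p of edgeR's quasi-likelihood test stood under 0.05, adjusted by Benjamini and Hochberg over all tested genes. Levels are given in CPM for each of the 3 libraries of a group, in the order of their replicate numbers, and are not corrected for gene length. In whole leaves, a change in the share of cells of a type and a change in RNA per cell cannot be told apart.

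The members together held a small part of the transcripts before flooding and a larger one at the end. They took 0.603 to 1.62% of the counts in the day 0 libraries. On day 6 they took 5.07 to 9.92% in M202 non-elongating leaves, 4.80 to 6.70% in M202 elongating leaves, 3.63 to 4.97% in M202(Sub1) non-elongating leaves and 2.86 to 3.54% in M202(Sub1) elongating leaves. The ranges of M202 and M202(Sub1) did not overlap on day 6 within either leaf type, but came close in non-elongating leaves, at 5.07 and 4.97%. The day 6 libraries took part in the selection, so this is a description. A single gene, OS04G0413600, supplied most of the members' counts on day 6 in M202. Its own share in non-elongating leaves of day 6 was 3.06 to 8.01% in M202 and 1.72 to 3.23% in M202(Sub1), which overlap. Mean levels on day 6 ran from 2.52 to 33751 CPM over the members, with a median of 27.4 CPM. Averaged over the 4 combinations on day 6, 22 of the 100 members were under 10 CPM and 23 were over 100 CPM.

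The median member moved upward through the whole series in every combination. The choice of the members fixes that day 6 lies above days 0 and 1, but not the order of days 0 and 1. In M202 non-elongating leaves the median level was 1.58, 8.17, 25.2 and 31.6 CPM on days 0, 1, 3 and 6. In M202 elongating leaves the medians were 1.22, 3.14, 13.3 and 27.6 CPM on the same days. M202(Sub1) had medians of 2.18, 6.84, 17.0 and 27.8 CPM in non-elongating leaves and of 0.939, 2.47, 7.97 and 19.1 CPM in elongating leaves. From day 1 to day 6 the median change was 5.27-fold in M202 elongating and 4.43-fold in M202(Sub1) elongating leaves, against 3.44-fold and 3.05-fold in the non-elongating leaves of M202 and M202(Sub1). These folds are on the scale of CPM with 1 added, which understates the change of weakly detected genes. Over all members and combinations the fold from day 1 to day 6 ran from 1.92 to 77.3. A rise of over 4-fold in all 4 combinations was seen for 19 members. The combination that set the score was M202(Sub1) non-elongating leaves for 46 members, M202 non-elongating leaves for 26, M202(Sub1) elongating leaves for 19 and M202 elongating leaves for 9.

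**Figure D1:**
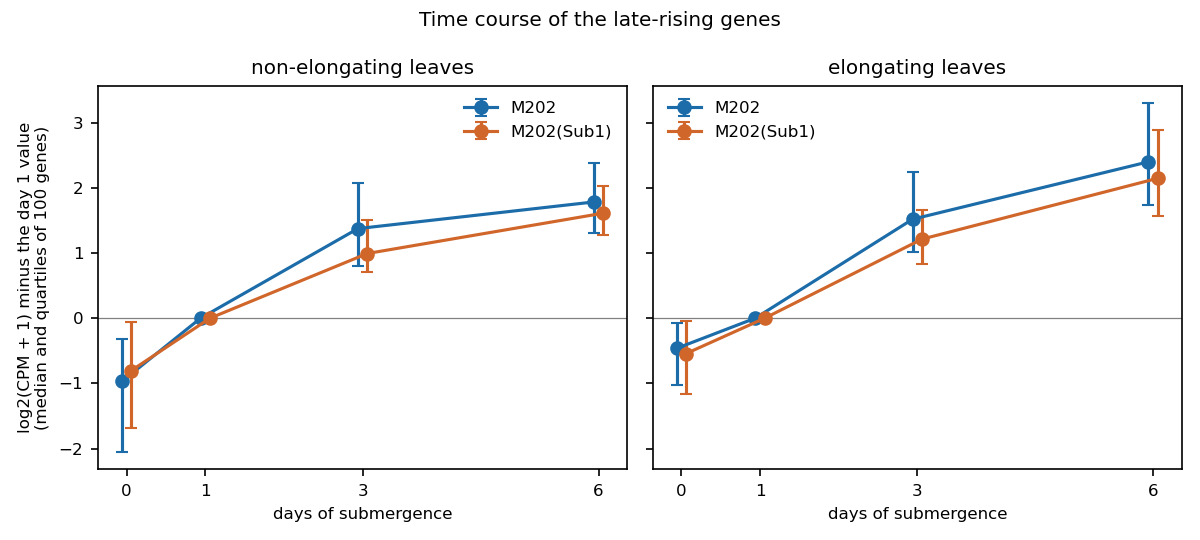
Change of the 100 members from day 1, as log2(CPM + 1) minus its day 1 value on group means, against days of submergence. Each leaf type is a panel, with the median (line) and quartiles (vertical bars) over members for M202 and M202(Sub1). The M202 median on day 3 lies further towards its day 6 value than the M202(Sub1) median does, with median places of 0.731 and 0.630 in non-elongating and 0.659 and 0.523 in elongating leaves.

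Not every member was late in the sense of staying low until day 1. Day 1 was already above day 0 in all 4 combinations for 59 members, and by over 1 log2 unit in all 4 for 14. In the other direction, 7 members had a lower mean on day 1 than on day 0 in all 4, namely OS07G0553700, OS04G0380300, OS12G0525300, OS03G0314500, OS09G0484200, OS10G0416800 and OS07G0595700. No count was found in any of the 12 day 0 libraries for 5 members, and 18 members had at most 12 counts over those libraries. In 92 members, all day 6 libraries lay above all day 0 and day 1 libraries of the same combination in all 4, a count that the selection itself favours. The same count was not made for all tested genes, so nothing is read from it.

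Day 3, which the selection did not use, shows when the rise took place. The place of day 3 is the share of the log2 change from day 1 to day 6 that was reached by day 3. Its median over the members was 0.731 ± 0.0168 in M202 non-elongating leaves, 0.659 ± 0.0219 in M202 elongating leaves, 0.630 ± 0.0457 in M202(Sub1) non-elongating leaves and 0.523 ± 0.0264 in M202(Sub1) elongating leaves, with SDs over the 3 day 3 libraries. The M202 medians lay above those of M202(Sub1) in each leaf type, but these SDs leave out the spread of days 1 and 6. Without 1 library of days 1, 3 or 6, the non-elongating medians ran from 0.709 to 0.785 in M202 and from 0.622 to 0.659 in M202(Sub1). With libraries scaled by TMM factors (trimmed mean of M-values) in place of their totals, the medians were 0.660 in M202 and 0.628 in M202(Sub1) non-elongating leaves, closer together than the larger SD, and 0.625 and 0.518 in elongating leaves. Day 3 means stood above those of day 6 for 27 members in M202 non-elongating leaves and for 8 in M202 elongating leaves, against 4 and 0 in M202(Sub1). In the fit, which scales by TMM factors, 18, 8, 4 and 2 members stood lower on day 6 than on day 3 in the same order. Of these, 2 (15.3% of all tested genes), 2 (14.6%), 0 (3.83%) and 0 (7.13%) were called lower on day 6. On plain CPM, the place of day 3 was higher in M202 in both leaf types for 53 members and higher in M202(Sub1) in both for 19. These 2 counts were not repeated with TMM factors. Since day 1 and day 6 chose the members, no test is given.

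**Figure D2:**
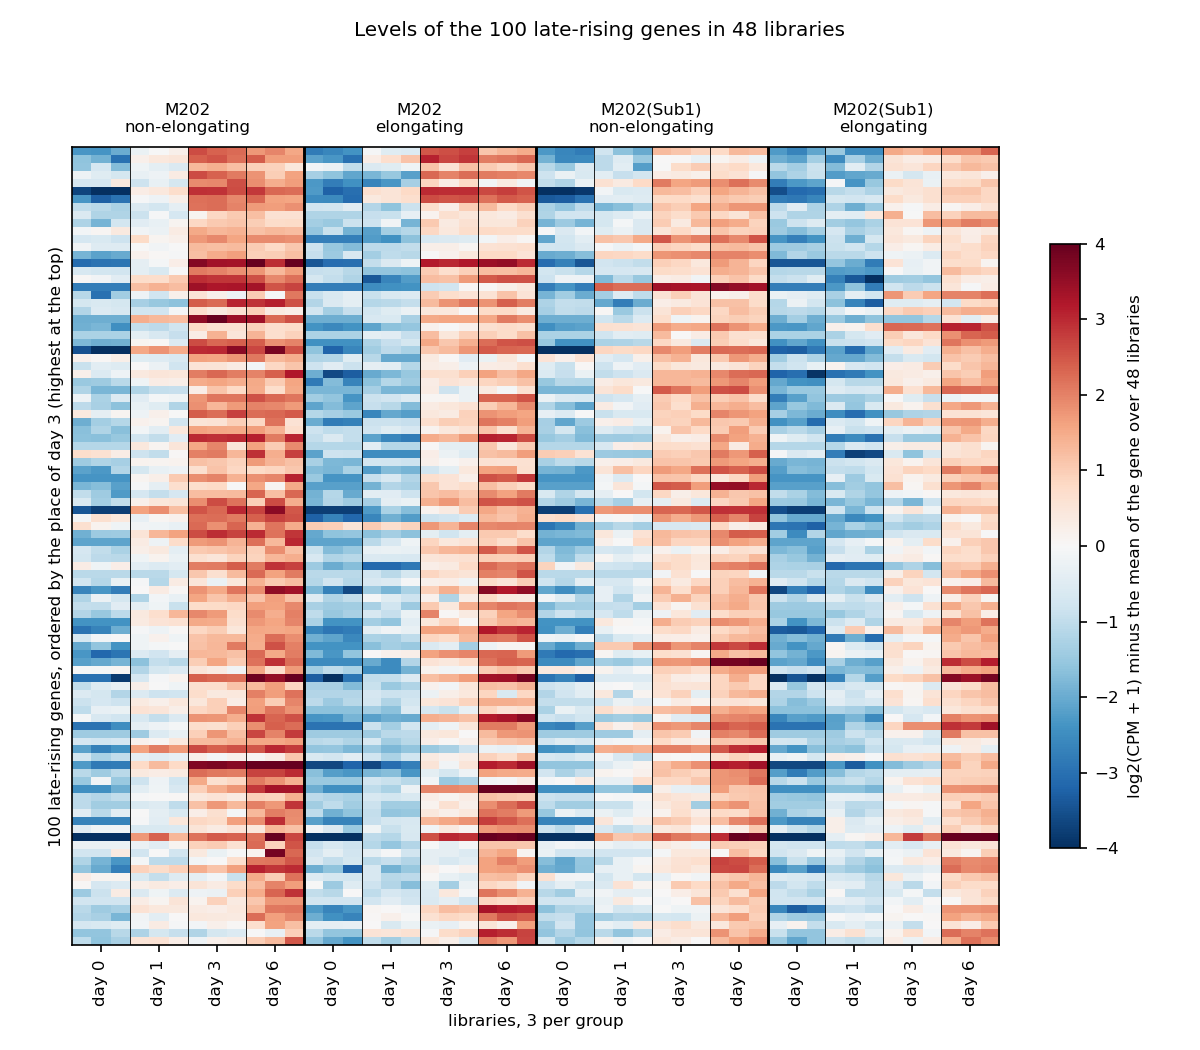
Levels of the 100 members (rows) in all 48 libraries (columns, by genotype, then leaf type, then day), as log2(CPM + 1) minus the mean of the gene, with members ordered by the mean place of day 3, highest at the top. The day 6 columns are the highest for most members, and the top rows are near that level on day 3, as in the 8 members whose day 3 mean stood above the day 6 mean in both leaf types of M202.

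Members differed in this timing. The earliest were OS01G0878900, OS01G0750500 and OS11G0508600, with a mean place of 1.25, 1.1 and 1.05. OS01G0878900 stood at 5.8, 4.05 and 3.8 CPM in the M202 elongating libraries of day 1, at 38.1, 40.8 and 46.1 CPM on day 3 and at 14.2, 16.6 and 18.7 CPM on day 6, so that all day 3 libraries exceeded all day 6 libraries. The same gene in M202(Sub1) elongating leaves stood at 1.51, 0.242 and 0.26 CPM on day 1, 19.2, 16.6 and 20.9 CPM on day 3 and 24.3, 24 and 34.4 CPM on day 6, with the highest libraries on day 6. The latest members were OS01G0575200, OS01G0773350 and OS08G0388900, with places of 0.16, 0.192 and 0.224. OS01G0575200 was at 6.55, 6.91 and 5.29 CPM on day 1, 3.61, 5.05 and 5.44 CPM on day 3 and 9.39, 11.8 and 28.6 CPM on day 6 in M202 non-elongating leaves, so its day 3 mean lay below that of day 1. HKT2;1 (OS06G0701700), a sodium transporter of the plasma membrane, also came late, with a place of 0.228. The day 3 mean stood above the day 6 mean in both leaf types of M202 for 8 members and in both of M202(Sub1) for 0. CIPK15 (OS11G0113700) and CIPK14 (OS12G0113500) were among the 8, but the step between those days was called in M202 for neither.

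Beside all tested genes, the steps from day 1 to day 3 and from day 3 to day 6 were called more often in the members, which their selection favours and from which nothing is read. Between days 1 and 3, the call was higher for 77 members in M202 non-elongating leaves (9.15% of all tested genes), 81 in M202 elongating (11.3%), 71 in M202(Sub1) non-elongating (10.1%) and 74 in M202(Sub1) elongating leaves (7.3%). Between days 3 and 6 it was higher for 54 members (13.9%), 67 (13.7%), 36 (3.6%) and 66 (6.74%) in the same order.

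The member with the highest score was OS08G0485800, for which the sources used here give no name. In M202(Sub1) non-elongating leaves it had 0, 0 and 0.349 CPM on day 0, 1.21, 1.03 and 1.44 CPM on day 1, 18.2, 17.9 and 20.0 CPM on day 3 and 80.8, 79.3 and 94.8 CPM on day 6. M202 non-elongating leaves reached 24.7, 42.4 and 25.8 CPM on day 6, below every M202(Sub1) library of that day. OS08G0351300, second by score, reached 243, 399.9 and 301 CPM in M202 non-elongating leaves on day 6 from 20.6, 28.5 and 20.6 CPM on day 1, and 108, 96.4 and 129 CPM in M202 elongating leaves from 0, 0.506 and 0.844 CPM. The latter is the largest fold of the set. OS11G0634350, the third, stood at 161, 149.6 and 154 CPM in M202 elongating leaves on day 6 and at 17.9, 18.2 and 19.2 CPM in those of M202(Sub1), and these groups did not overlap. The day 6 libraries took part in the selection, so these differences between genotypes, that of OS08G0485800 too, are a description. OS09G0437500, the fourth, was well detected from the start, at 27, 27.5 and 38.2 CPM on day 0 and 1287, 1404 and 1760 CPM on day 6 in M202 elongating leaves. The next 6 by score were OS03G0576200, OS12G0117600, OS12G0428000, OS03G0347900, OS05G0121100 and OS11G0118500, with scores between 2.63 and 2.11. OS03G0576200 had no count on day 0 in any library and reached 15.9, 9.63 and 17.5 CPM in M202 non-elongating leaves on day 6.

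By counts, 5 members stood out on day 6, namely OS04G0413600, OS11G0703900, OS10G0552600, OS05G0375400 and OS06G0688100. OS04G0413600 had more counts than any other gene of the table in both leaf types of M202 on day 6, and was second in both of M202(Sub1). It was already abundant on day 0, when it ranked 6 and 11 in non-elongating and elongating leaves of M202 and 9 and 13 in those of M202(Sub1). On day 6 its levels were 30585, 54774 and 80132 CPM in M202 non-elongating leaves and 22516, 17171 and 32297 CPM in those of M202(Sub1), which overlap. In elongating leaves they were 48145, 39699 and 28913 CPM in M202 and 14253, 15816 and 20712 CPM in M202(Sub1), which do not. Replicates varied widely, and in M202 non-elongating leaves its share of the counts ran from 3.06 to 8.01%. OS04G0413600 was called lower in M202(Sub1) on day 6 in both leaf types (log2 -1.38 ± 0.38 (SE), adjusted p = 0.00784 in non-elongating and log2 -1.29 ± 0.38 (SE), adjusted p = 0.0103 in elongating leaves). The day 6 libraries took part in the selection, so these calls are a description. On day 3, which the selection did not use, the gene was called in neither leaf type (adjusted p = 0.96 and 0.43). OS10G0552600 was nearly absent on day 0, at 0.404, 0 and 0 CPM in M202 elongating leaves, and stood at 4626, 2555 and 4686 CPM there on day 6. OS11G0703900 and OS06G0688100 varied less between replicates, the first at 3224, 3198 and 3216 CPM and the second at 1618, 1498 and 1424 CPM in the same leaves and day. OS05G0375400 stood at 1541, 1398 and 1374 CPM there, and at 753, 634 and 766 CPM in M202(Sub1) elongating leaves of day 6. The genotypes did not overlap, which is again a description. On day 3 the gene was called lower in M202(Sub1) elongating leaves (log2 -1.55 ± 0.30 (SE), adjusted p = 0.000139).

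**Figure D3:**
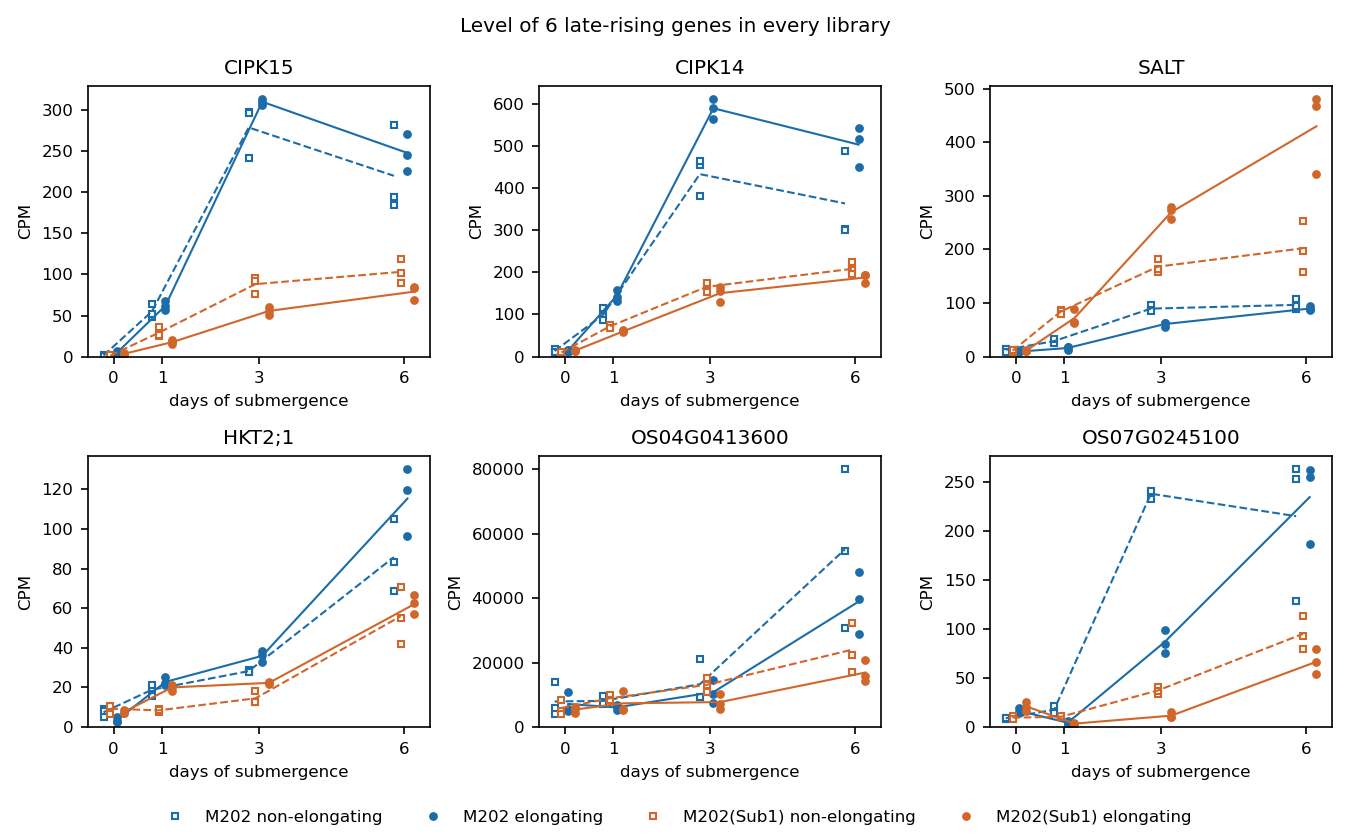
Levels of CIPK15, CIPK14, SALT, HKT2;1, OS04G0413600 and OS07G0245100 in CPM in every library (points) with lines through the means of 3 libraries, against days of submergence, by genotype and leaf type. CIPK15, CIPK14 and OS07G0245100 are higher in M202 on day 3, SALT is higher in M202(Sub1), and HKT2;1 reaches most of its level after day 3.

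The difference between genotypes on day 3, which rests on libraries the selection did not use, ran mostly in 1 direction. In non-elongating leaves 36 members were lower in M202(Sub1) than in M202, beside 7.87% of all tested genes, and 8 were higher, beside 5.94%. In elongating leaves 31 members were lower, beside 8.35%, and 9 were higher, beside 6.33%. The median member differed by -0.42 log2 units (M202(Sub1) minus M202) in non-elongating and by -0.46 in elongating leaves, where the median of all tested genes was at 0 and 0.02. Lower in both leaf types were 25 members, beside 4.26% of all tested genes, and higher in both were 4, beside 2.54%. For the 25, log2 differences ran from -0.72 to -3.66 (median -1.68) in non-elongating and from -0.71 to -4.48 (median -2.03) in elongating leaves. All 3 M202(Sub1) libraries lay below all 3 M202 libraries for 52 members in non-elongating leaves (20.4% of all tested genes) and for 39 in elongating leaves (14.8%). All 3 M202(Sub1) libraries lay above all 3 of M202 for 10 members in non-elongating (11.3%) and 16 in elongating leaves (15.9%), near those shares. These counts of libraries apart are on plain CPM, whereas the calls use TMM factors. In non-elongating leaves of day 3 the factors were 1.067 to 1.104 in M202 and 0.988 to 1.061 in M202(Sub1). Plain CPM therefore sets M202(Sub1) lower against M202 there than the fit does.

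**Figure D4:**
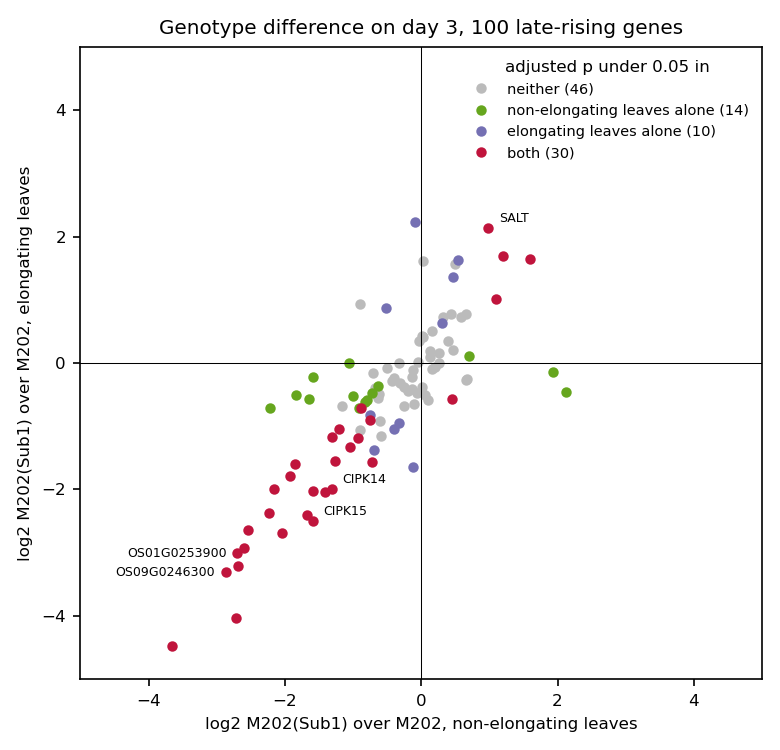
Log2 difference of M202(Sub1) from M202 on day 3 for each of the 100 members, in non-elongating leaves (horizontal) and elongating leaves (vertical), coloured by whether the difference was called in both leaf types (30), in non-elongating leaves alone (14), in elongating leaves alone (10) or in neither (46). Most members called in both lie at the lower left, 4 lie at the upper right, and OS08G0357300 was called in opposite directions.

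CIPK15 is a calcineurin B-like-interacting protein kinase that in rice links low oxygen to sugar signalling through the kinase SnRK1A and to alpha-amylase. On day 3 it stood at 298, 297 and 242 CPM in M202 non-elongating leaves and at 96.2, 92.5 and 76 CPM in those of M202(Sub1). In elongating leaves it stood at 314, 311 and 306 CPM in M202 and at 50.9, 55.2 and 60.7 CPM in M202(Sub1). The genotypes did not overlap in either leaf type, and M202 was the higher in both. The difference was log2 -1.58 ± 0.16 (SE), adjusted p = 8.74e-11, in non-elongating and log2 -2.50 ± 0.16 (SE), adjusted p = 1.13e-16, in elongating leaves. On day 0 both genotypes had little of it, with 2.12, 1.49 and 0.39 CPM in M202 and 1.42, 0.316 and 1.75 CPM in M202(Sub1) non-elongating leaves.

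CIPK14, a kinase of the same family and a close paralogue of CIPK15, followed a like course at a higher count. Its levels on day 3 were 454, 464 and 381 CPM in M202 and 169, 174 and 154 CPM in M202(Sub1) non-elongating leaves. In elongating leaves they were 612, 565 and 591 CPM in M202 and 166, 131 and 155 CPM in M202(Sub1). Again no library of M202(Sub1) reached the lowest of M202. The differences were log2 -1.31 ± 0.14 (SE), adjusted p = 2.84e-10, in non-elongating and log2 -2.0 ± 0.14 (SE), adjusted p = 8.91e-16, in elongating leaves. The pair lies at matching places near the ends of chromosomes 11 and 12, whose genes include near-identical copies, so reads may be shared between them and each value is uncertain to that extent.

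SALT (OS01G0348900), a mannose-binding lectin of the jacalin family first found in salt-treated rice, went the other way. It was at 96.8, 86.4 and 85.4 CPM in M202 and at 182, 157 and 164 CPM in M202(Sub1) non-elongating leaves on day 3. In elongating leaves the levels were 63.4, 54.9 and 63.5 CPM in M202 and 279, 273 and 257 CPM in M202(Sub1). Every M202(Sub1) library exceeded every M202 library, by log2 0.98 ± 0.14 (SE), adjusted p = 4.1e-07, in non-elongating and by log2 2.13 ± 0.14 (SE), adjusted p = 2.19e-16, in elongating leaves. The gene was called higher in M202(Sub1) in all 6 comparisons of submerged leaves, with log2 differences of 1.63, 0.98 and 0.90 on days 1, 3 and 6 in non-elongating and of 2.12, 2.13 and 2.18 in elongating leaves. Before flooding it stood at 9.89, 8.41 and 9.79 CPM in M202 and 10.4, 10.4 and 12.4 CPM in M202(Sub1) elongating leaves, close but without overlap, and was not called (log2 0.30, adjusted p = 0.427). OS04G0418800 was the other of 2 members higher in all 6 (1.17% of all tested genes), at 3.31, 6.59 and 5.1 CPM in M202 and 18.2, 14.6 and 10.3 CPM in M202(Sub1) non-elongating leaves on day 3. OS10G0162842 and OS07G0195350 completed the 4 members higher in both leaf types on day 3, with log2 1.20 and 1.10 in non-elongating and 1.70 and 1.02 in elongating leaves.

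Among the members lower in M202(Sub1), OS07G0245100 and OS01G0253900 had the smallest p in non-elongating leaves. OS07G0245100 stood at 240.1, 232 and 240.5 CPM in M202 and 41.2, 33.9 and 36.5 CPM in M202(Sub1) non-elongating leaves, and at 84.3, 75.8 and 99.4 CPM in M202 and 15, 9.94 and 9.99 CPM in M202(Sub1) elongating leaves. Its difference was log2 -2.60 ± 0.18 (SE), adjusted p = 8.73e-16, and log2 -2.92 ± 0.20 (SE), adjusted p = 2.42e-16, in the same order. OS01G0253900 stood at 218, 207 and 207 CPM in M202 and 32.9, 34.8 and 24.5 CPM in M202(Sub1) non-elongating leaves, a difference of log2 -2.70 ± 0.19 (SE), adjusted p = 2.52e-15. The genotypes were apart in every library of both genes. OS12G0428000 was at 134, 107 and 105.8 CPM in M202 against 19.7, 17.9 and 13.3 CPM in M202(Sub1) non-elongating leaves (log2 -2.69), and OS08G0351300 at 160.2, 166 and 154 against 26.3, 33.4 and 42.5 CPM (log2 -2.15). OS05G0375466 had the largest difference in elongating leaves, at 10.2, 10.5 and 10.4 CPM in M202 and 0.289, 0.288 and 0.75 CPM in M202(Sub1), the latter resting on a few counts per library. OS02G0586900 was higher in M202(Sub1) in non-elongating leaves, at 24.2, 22.9 and 13.3 against 6.31, 6.73 and 3.4 CPM (log2 1.94 ± 0.33 (SE), adjusted p = 3.34e-05), and was not called in elongating leaves (log2 -0.14, adjusted p = 0.858). Whether its difference itself differs between leaf types on day 3 was not tested.

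The libraries of days 0, 1 and 6 took part in the selection, so the calls between genotypes on those days, for single members too, are a description. In non-elongating leaves on day 1, 24 members were lower (9.09% of all tested genes) and 9 higher (5.95%), and on day 6, 42 were lower (8.13%) and 7 higher (7.17%). In elongating leaves on day 1, 18 were lower (11.6%) and 8 higher (8.76%), and on day 6, 40 were lower (10.1%) and 10 higher (10.3%). The share of higher members stood near that of all tested genes in these 4 comparisons. The median member differed by -0.29 on day 1 and -0.63 log2 units on day 6 in non-elongating leaves, and by -0.11 and -0.46 in elongating leaves. Before flooding, 0 members were higher (1.2%) and 1 lower (1.54%) in non-elongating leaves. In elongating leaves of day 0, 2 were higher (3.16%) and 1 was lower (2.14%). These counts were below the shares of all tested genes, but the median member then stood at only 0.939 to 2.18 CPM. Between leaf types on day 0, 26 members were lower (15.6%) and 11 higher (13.9%) in elongating leaves of M202. In M202(Sub1), 28 were lower (15.5%) and 10 higher (14.3%). Whether low levels limited the calls between genotypes on day 0 was not tested, and nothing is read from the counts of those calls. Without replicate 2 of M202 on day 0, 2 members in non-elongating and 6 in elongating leaves were called in place of 1 and 3. Over all 8 comparisons, 73 members were called at least once, beside 47.5% of all tested genes. On day 6, 32 members were lower (4.21%) and 2 higher (4.02%) in both leaf types, and on day 1, 10 were lower (4.98%) and 5 higher (2.93%) in both.

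**Figure D5:**
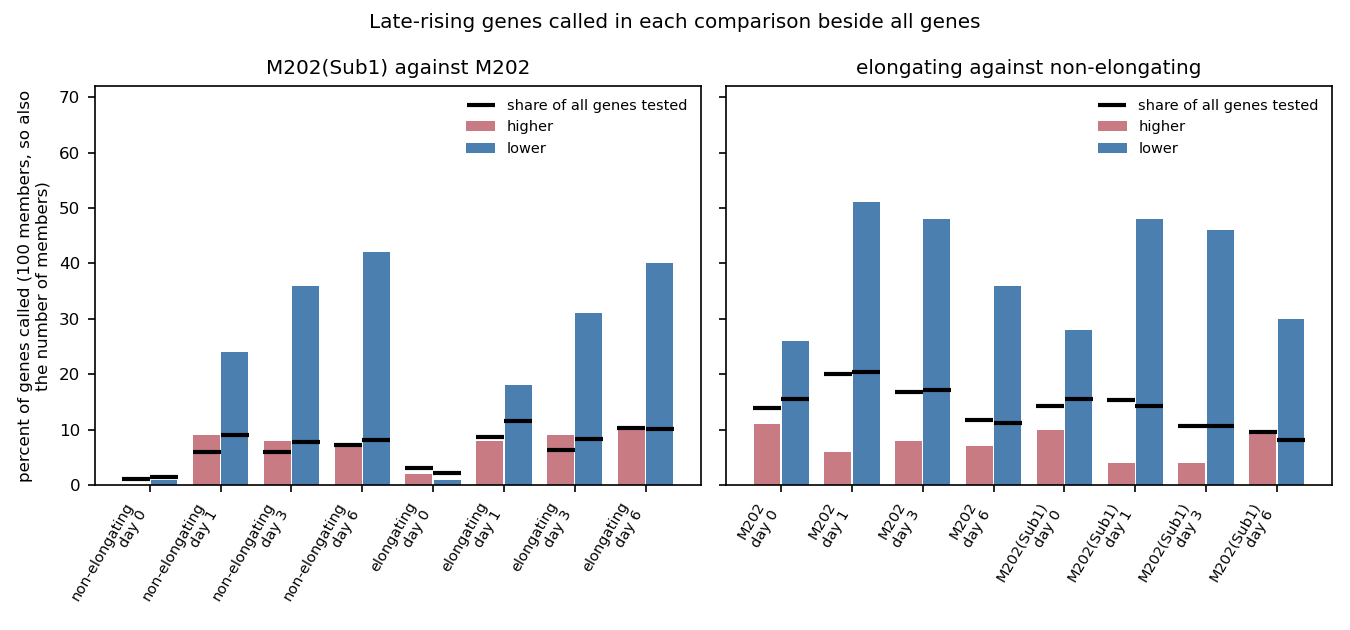
Percent of the 100 members, equal to their number, called higher (red bars) or lower (blue bars) in each comparison of genotypes (M202(Sub1) against M202) and of leaf types (elongating against non-elongating), by day, with black dashes for the share of all tested genes called the same way. Blue bars exceed the dashes on days 1, 3 and 6 in both families, with 36 and 31 members lower in M202(Sub1) on day 3 against 7.87 and 8.35% of all tested genes. For leaf types they do so on day 0 too, with 26 members against 15.6% in M202 and 28 against 15.5% in M202(Sub1).

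OS09G0246300 was the 1 member lower in M202(Sub1) in all 8 comparisons, beside 0.62% of all tested genes. On day 0 it stood at 22.6, 21.7 and 16 CPM in M202 and 0.596, 0.519 and 0.259 CPM in M202(Sub1) elongating leaves, a difference of log2 -5.37 ± 0.38 (SE), adjusted p = 1.97e-15. In non-elongating leaves of day 0 the levels were 17.5, 11.9 and 9.36 CPM in M202 and 0.568, 0.949 and 2.1 CPM in M202(Sub1), a difference of log2 -3.43 ± 0.34 (SE), adjusted p = 1.83e-10. By day 6 the groups were closer but still apart, at 44.1, 45.1 and 44.4 CPM in M202 and 18.1, 14.4 and 19.8 CPM in M202(Sub1) elongating leaves. Its identifier places it on chromosome 9, which also carries the Sub1 locus. Also lower in M202(Sub1) in all 6 comparisons of submerged leaves were OS11G0634350, CIPK15, OS05G0375466 and OS01G0750500, which makes 5 members (1.31% of all tested genes). OS01G0750500 stood at 65.7, 49.5 and 56.1 CPM in M202 and 10.4, 8.64 and 8.99 CPM in M202(Sub1) elongating leaves on day 3.

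HKT2;1 was called in opposite directions before flooding and on day 3, and the change of its difference over time was not tested. On day 0 it was higher in M202(Sub1) elongating leaves, at 8.64, 7.27 and 6.99 CPM against 4.84, 3.19 and 2.61 CPM in M202 (log2 1.18 ± 0.24 (SE), adjusted p = 0.000725). On day 3 it was lower in M202(Sub1), at 23, 21.8 and 22.2 against 33.1, 38.5 and 36.3 CPM in elongating leaves (log2 -0.71 ± 0.16 (SE), adjusted p = 0.00111). The non-elongating leaves of day 3 had 12.8, 12.5 and 18.2 CPM in M202(Sub1) and 29, 28 and 27.7 CPM in M202 (log2 -0.88 ± 0.17 (SE), adjusted p = 0.000172). No library of M202(Sub1) overlapped those of M202 in these 3 comparisons.

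Between leaf types on day 3, more members were called lower than higher in elongating leaves. In M202, 48 members were lower in elongating leaves (17.2% of all tested genes) and 8 higher (16.9%), and in M202(Sub1) 46 were lower (10.7%) and 4 higher (10.7%). The median member differed by -0.70 log2 units in M202 and by -0.71 in M202(Sub1). Lower in both genotypes were 36 members (8.36% of all tested genes) and higher in both was 1 (8.42%). The 36 differed by log2 -0.74 to -3.93 (median -1.51) in M202 and from -0.60 to -4.61 (median -1.61) in M202(Sub1).

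OS12G0130200 had the widest gap between leaf types on day 3. It stood at 69.4, 62.5 and 63.6 CPM in non-elongating and 2.81, 2.96 and 6.05 CPM in elongating leaves of M202, and at 68.3, 65.8 and 64.4 CPM in non-elongating and 2.89, 2.31 and 2.75 CPM in elongating leaves of M202(Sub1). Its differences were log2 -3.93 ± 0.25 (SE), adjusted p = 5.25e-16, in M202 and log2 -4.61 ± 0.26 (SE), adjusted p = 4.12e-17, in M202(Sub1). OS08G0509100 stood at 70.0, 59.2 and 65.8 CPM in non-elongating and 3.12, 3.62 and 5.38 CPM in elongating leaves of M202 (log2 -3.88 ± 0.24 (SE), adjusted p = 1.58e-17). In M202(Sub1) it stood at 45.7, 45 and 38.5 CPM in the former and 6.07, 8.07 and 8.25 CPM in the latter (log2 -2.50 ± 0.21 (SE), adjusted p = 1.61e-12). The leaf types were apart in every library of these genes. OS10G0465700, OS06G0264500 and OS08G0357300 were lower by log2 -2.82, -2.46 and -1.15 in M202 and by -2.68, -1.40 and -2.18 in M202(Sub1). HKT2;1 was the member higher in elongating leaves of both genotypes, by log2 0.47 ± 0.16 (SE), adjusted p = 0.0186, in M202 and log2 0.64 ± 0.17 (SE), adjusted p = 0.00519, in M202(Sub1). In elongating leaves of M202, CIPK14 (log2 0.57), OS07G0484800 (0.86) and OS11G0126900 (0.93) were also called higher, and in those of M202(Sub1) OS04G0535600 (0.67). SALT was called lower in elongating leaves of M202 (log2 -0.44, adjusted p = 0.0129) and higher in those of M202(Sub1) (log2 0.71, adjusted p = 8.31e-05). Whether these differences of leaf type differ between the genotypes on day 3 was not tested.

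On the days whose libraries took part in the selection, the calls between leaf types are again a description. In M202 the lower members numbered 26 before flooding (15.6%), 51 after 1 day (20.5%) and 36 after 6 days (11.3%), and in M202(Sub1) 28 (15.5%), 48 (14.3%) and 30 (8.18%). Higher members of M202 numbered 11 before flooding (13.9%), 6 after 1 day (20%) and 7 after 6 days (11.8%), and those of M202(Sub1) 10 (14.3%), 4 (15.4%) and 10 (9.64%). For M202 the median member differed by -0.34, -0.97 and -0.43 log2 units on days 0, 1 and 6, and for M202(Sub1) by -0.29, -0.92 and -0.35. Members lower in all 8 comparisons of leaf types numbered 11 (1.28% of all tested genes), and those lower in all 6 of submerged leaves numbered 21 (2.29%). At least 1 call was made for 89 members, beside 70.5% of all tested genes. On day 0, 21 members were lower (10.5%) and 6 higher (10.4%) in elongating leaves of both genotypes.

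The rise from day 1 to day 6 is the quantity the members were selected on, so the following counts are a description and nothing is read from them. In the fit, the rise in M202(Sub1) was smaller than in M202 for 8 members in non-elongating leaves (1.78% of all tested genes) and larger for 1 (3.96%). In elongating leaves it was smaller for 19 (4.89%) and larger for 6 (6.81%). Without M202 non-elongating day 6 replicate 1, 14 members were called in place of 9, and without M202(Sub1) elongating day 1 replicate 1, 16 in place of 25. Elongating leaves had the larger rise for 30 members in M202 (8.22%) and for 20 in M202(Sub1) (4.1%), and the smaller for 3 (8.24%) and 2 (3.4%). Median differences were -0.37 and -0.45 log2 units between genotypes in non-elongating and elongating leaves, and 0.62 and 0.59 between leaf types in M202 and M202(Sub1). When the groups of the contrast were fitted alone, 34 members were called between leaf types of M202(Sub1) in place of 22.

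The members shared a common profile by choice, with a correlation of each gene with the mean profile over the 16 group means of 0.630 to 0.982 (median 0.895), where the points share libraries and the selection. They lay on all 12 chromosomes, with 2 directly adjacent pairs. OS05G0375400 and OS05G0375466 were neighbours with r = 0.870 over the 48 libraries, and OS01G0915900 and OS01G0916000 with r = 0.898. Overlapping or near-identical neighbours may share reads, and strand use in counting is not given in the sources used here. Of the members, 13 had identifiers that do not end in 00, beside 21.1% of the table. The starts of chromosomes 11 and 12 held 3 and 5 members among 293 and 325 genes with identifiers there, CIPK15 and CIPK14 included.

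The lists of other pathways of flooded leaves are given by their scores. None of 14 genes of labdane phytoalexin synthesis, 6 genes of pathogenesis-related proteins and their regulator, 6 genes of senescence with chlorophyll breakdown or 4 genes of fermentation was a member, which makes 0 of 30, and since the members are 0.264% of the genes in the table, nothing is read from that count. By the score of the selection, the best of each list stood at rank 947, 1442, 1686 and 32876 of all genes, and the median scores were -0.24, -0.23, -1.17 and -3.81.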

How the data were processed

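Transcripts were sequenced from 48 leaf libraries in 16 groups of 3. Raw counts for each gene were deposited by the authors, and the submitters' processing notes name STAR, featureCounts, DESeq2 and the assembly IRGSP-1.0, without versions. Whether strand was used is not given in the sources used here. Among counts above 0, 62.3 to 73.8% were even, which points to the mates of a pair being counted 1 by 1. Errors cover the spread of these libraries only. No value column was left out.

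Of 37830 genes, 7430 had no count. filterByExpr of edgeR 4.0.16 (R 4.3.3, limma 3.58.1; minimum count 10, minimum total 15) kept 21453 genes and at least 99.86% of the counts. Libraries were scaled by TMM factors between 0.834 and 1.10, and correlations of replicates lay between 0.960 and 0.988. A quasi-likelihood F test was run in 1 fit of all 16 groups (32 residual degrees of freedom, common biological coefficient of variation 0.152), two-sided, adjusted by Benjamini and Hochberg over all tested genes, with a threshold of 0.05. It was tested on simulated data first. Levels are plain CPM as mean ± SD or per library, and log2 differences carry the SE of the fit. The members' selection used a pseudocount of 1.

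The members, gene lists and tests were chosen with earlier results of these data known. Genes named are the 10 highest scores, the 5 highest counts on day 6, the 3 smallest adjusted p per direction and contrast (for leaf types on day 3), members called in all 8 genotype contrasts, the extremes in the place of day 3, the 3 smallest adjusted p of each contrast of rises, and members with a checked name. Others named in counts of 8 or fewer were chosen after their values were seen. Of the members, 4 are given a symbol, paired with the identifier from general knowledge and checked by that symbol lying on the same chromosome in the RefSeq gene table of ASM3414082v1. Of the 30 genes in the pathway lists, 22 passed the same check. That table holds no product names, so gene families and promoter motifs were not analysed here, nor were lists of an earlier session.

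Also tried were upper-quartile and RLE scaling, a replicate block, no filter, the groups of a contrast alone, DESeq2 1.42.0, pseudocounts of 0.5 and 5, TMM-scaled CPM, group medians and each library left out. Tables and figures were made with Python 3.11.15, pandas 2.3.3, numpy 2.4.6 and matplotlib 3.10.9.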

Additional observations from a re-analysis of the deposited data

Results flagged for a closer look

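The differences in the rise from day 1 to day 6 are listed because the effect of time differed between genotypes or leaf types by a test of the difference itself (edgeR's quasi-likelihood test, adjusted over all tested genes). The rise is the quantity the members were selected on, so these values are a description and support nothing. Calls were made for 9 members between genotypes in non-elongating leaves, where 1.78% of all tested genes had a smaller and 3.96% a larger rise in M202(Sub1). They were made for 25 in elongating leaves (4.89 and 6.81%). Between leaf types they were made for 33 in M202 and 22 in M202(Sub1), where elongating leaves had the larger rise for 8.22 and 4.1% of all tested genes and the smaller for 8.24 and 3.4%. The causes were not tested.

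OS04G0340300 went from a mean of 16.7 CPM on day 1 to 298 CPM on day 6 in M202 non-elongating leaves and from 12.4 to 40.7 CPM in M202(Sub1) non-elongating leaves (log2 difference -2.70). In M202(Sub1) elongating leaves it went from 4.4 to 245 CPM, against the non-elongating leaves (log2 difference 3.91). OS08G0398400 and OS10G0208500 had a smaller rise in M202(Sub1) non-elongating leaves, by log2 -1.21 and -1.23.

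OS01G0878900 had a larger rise in M202(Sub1) than in M202 elongating leaves, from 0.669 to 27.6 against 4.55 to 16.5 CPM (log2 difference 3.69). OS11G0126900 and OS06G0264500 had a smaller rise in M202(Sub1) elongating leaves, by log2 -2.20 and -1.40.

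In M202, OS01G0253900 had a larger rise in its elongating leaves, from 3.43 to 163 CPM, than in non-elongating leaves, from 49.3 to 135 CPM (log2 difference 3.84). OS03G0701200 and OS09G0437500 did so by log2 2.14 and 1.80. In M202(Sub1), OS10G0493600 and OS10G0162842 had a larger rise in elongating leaves, by log2 1.22 and 2.99.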

How the results depend on the processing

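The 64 differences of single members named by a smallest p, which were picked for it, kept their direction and stayed under the threshold in 839 values under alternatives, with an adjusted p of at most 0.0471, and 1 further fit of a contrast's groups alone gave no p. Scaling by RLE, upper quartile or DESeq2 moved the median of all genes by under 0.1 log2 units in every contrast. Of the counts of called members, those of day 0 moved most. Without a filter, the genotype calls were 2 (non-elongating) and 6 (elongating) in place of 1 and 3, and DESeq2 called 2 in non-elongating leaves. With the groups of the contrast fitted alone, 34 members differed in the rise between leaf types of M202(Sub1) in place of 22. In the fit with a replicate block, 46 members (non-elongating) and 39 (elongating) differed between genotypes on day 3, against 44 and 40, and no count moved by over 1.5 times. Deviations of libraries with the same number correlated by -0.34 to 0.41 (median -0.00184), with 37 of 360 pairs over 0.1, so the numbers were not taken to pair the samples. Leaving out each library of a contrast in turn gave 1 to 2 and 3 to 6 members for genotype on day 0 in non-elongating and elongating leaves, and 7 to 14 and 16 to 27 for the genotype difference of the rise. The median place of day 3 ran from 0.709 to 0.785 in M202 non-elongating and from 0.627 to 0.667 in M202 elongating leaves when a library was left out. A pseudocount of 5 gave 0.605 in M202 and 0.471 in M202(Sub1) elongating leaves, and TMM-scaled CPM gave 0.660 and 0.625 in M202 non-elongating and elongating leaves. The cause of these shifts was not tested. The set kept 92 of its 100 members with a pseudocount of 0.5, 74 with 5, 88 with TMM-scaled CPM, 88 with group medians, 96 with day 3 above day 1 required and 92 to 100 without 1 library. Members under 10 CPM rest on few counts per library, which limits their folds.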
